A study of Homo sapiens with 60 samples.

Results

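The genes described here are 8 chemokines that attract neutrophils, monocytes or cells bearing CCR6: CXCL1, CXCL2, CXCL3, CXCL5, CXCL6, CXCL8, CCL2 and CCL20. They were taken by symbol from a count table of 60675 genes, and all 8 were found. The cells were SW1783, an established human astrocytoma line, exposed for 24 h to vehicle (0.1% DMSO on the sample labels) or to 1 of 8 hot-water extracts of herbs or herb formulas. Expression was measured by mRNA sequencing in 60 libraries that fell into 25 groups. Sagunja-tang and Samul-tang are formulas, and the single plants were Cnidii Rhizoma, Rehmanniae Radix Preparata, Cinnamomi Cortex, Astragali Radix, Angelicae Gigantis Radix and Paeoniae Radix, named below by their genus or, for Cinnamomi Cortex, as Cinnamon. Each extract was given at a high dose of 500 µg/mL, a medium dose of 100 µg/mL and a low dose of 20 µg/mL. Vehicle, Sagunja-tang, Cnidium, Rehmannia, Cinnamon and Astragalus had 3 libraries per group, Samul-tang had 2 per dose, and Angelica and Paeonia had 1 per dose.

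Chemokines are small secreted proteins that guide leukocytes along a concentration gradient. The CXC members studied here carry a glutamate, leucine and arginine motif before their first cysteines, bind CXCR2 (CXCL6 and CXCL8 also CXCR1) and draw neutrophils out of blood vessels. CCL2 binds CCR2 and recruits monocytes, and CCL20 binds CCR6 on subsets of T cells, B cells and dendritic cells. Astrocytes and glioma cells secrete several of these proteins when NF-kB, the transcription factor downstream of interleukin 1, TNF and Toll-like receptors, is active.

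All 6 CXC members lie within 358.8 kb of chromosome 4 on GRCh38. In order along the chromosome they are CXCL8 (73740506 to 73743716, plus strand), CXCL6 (73836497 to 73849064, plus), CXCL1 (73869393 to 73871242, plus), CXCL5 (73995642 to 73998779, minus), CXCL3 (74036589 to 74038807, minus) and CXCL2 (74097035 to 74099293, minus). CCL2 lies on chromosome 17 (34255218 to 34257203, plus) and CCL20 on chromosome 2 (227805739 to 227817564, plus). The promoter sequences below are shown because the 6 clustered genes moved together and share a stretch of letters upstream of their RefSeq starts. They were taken from the RefSeq promoter table for GRCh38.p14, in which 7 of the 8 genes had an entry and CCL2 had none. Capitals mark GGAATTTCC in the CXC genes, TGACTCA also in CXCL8, and the NF-kB consensus match in CCL20. The windows are CXCL8 chr4:73740419-73740504 (plus strand), CXCL1 chr4:73869243-73869328 (plus), CXCL6 chr4:73836579-73836608 (plus), CXCL5 chr4:73998748-73998777 (minus), CXCL3 chr4:74038748-74038777 (minus), CXCL2 chr4:74099253-74099282 (minus) and CCL20 chr2:227813753-227813782 (plus), each printed 5′ to 3′ on the strand of its gene. The windows of CXCL6, CXCL5, CXCL3 and CXCL2 lie inside the GENCODE 29 gene positions given above, and these 4 overlap a GENCODE 29 exon. The CCL20 window also lies inside its gene position but overlaps no exon of these genes.
CXCL8: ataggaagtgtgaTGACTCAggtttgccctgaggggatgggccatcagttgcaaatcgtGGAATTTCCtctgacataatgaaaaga
CXCL1: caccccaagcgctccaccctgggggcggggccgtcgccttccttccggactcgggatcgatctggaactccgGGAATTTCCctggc
CXCL6: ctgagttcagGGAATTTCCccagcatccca
CXCL5: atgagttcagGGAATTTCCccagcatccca
CXCL3: tggagctccgGGAATTTCCctggcccggcc
CXCL2: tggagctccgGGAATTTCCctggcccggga
CCL20: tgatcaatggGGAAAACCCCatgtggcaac

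GGAATTTCC began 91 bases before the start in CXCL8, 78 in CXCL1, 77 in CXCL2, 78 in CXCL3, 90 in CXCL5 and 89 in CXCL6. Searched on both strands over the 250 bases before each start, it was present in 6 of the 7 chemokine promoters and in 0.415% of 34943 RefSeq promoters. It was picked after the promoters had been read, and it overlaps the longer NF-kB consensus, which had a match in 6 of the 7 against 9.95% of all promoters. TGANTCA, the core of an AP-1 site, matched 1 of the 7 (CXCL8) against 6.59%, and TATAAA matched CXCL8 and CCL20 against 10.8%. A match describes letters only and is no evidence of binding. Several of the genes are near copies. Over the same 250 bases CXCL5 and CXCL6 were 85.3% identical, and CXCL1 and CXCL3 81.4%. Coding sequences were 93.5% identical between CXCL1 and CXCL2, 90.7% between CXCL1 and CXCL3, 94.4% between CXCL2 and CXCL3 and 87.4% between CXCL5 and CXCL6. Of stretches of 100 bases over all transcripts, only CXCL2 and CXCL3 shared any exactly (79 each, 5% and 3.27% of theirs), so the split of reads between these genes is uncertain there. The other members shared none, though shorter or imperfect matches were not counted. CXCL8 was 52.1% to 55.8% identical to the others.

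Library totals ran from 20604792 to 29609799 counts, with 22705 to 23990 genes detected. Levels are CPM, the count of a gene scaled to a common library total with TMM factors. 1 library stood apart: the first replicate of the low Sagunja-tang dose had the lowest total and a root mean square log2 deviation of 0.723 from its replicates, where libraries of other groups had 0.131 to 0.241. Results that use this group are also given without that library, which enters the spread shared by all groups as well. Of 12 astrocyte and astrocytoma markers, GFAP, S100B, AQP4, ALDH1L1, SLC1A2 and SOX2 were under 1 CPM in every library. The other 6 were expressed, with vehicle means of 21.9 CPM for SLC1A3, 6.41 for NES, 87.3 for SOX9, 131.1 for CLU, 2750 (2749.7) for CD44 and 5856 for VIM. Of 10 myeloid markers, 6 were under 1 CPM in every library, among them FCGR3A at 0. The others had vehicle means of 160.9 CPM for CD68, 8.48 for PTPRC, 3.01 for CSF1R and 1.01 for S100A9. The summed level of the 10 was 166 to 178 CPM in vehicle and 168 to 179 CPM at the high Sagunja-tang dose. All 6 lymphocyte markers were under 1 CPM. The 6 endothelial markers summed to 30.4 to 32.1 CPM in vehicle, where KDR had a mean of 29.5 CPM. At the high Sagunja-tang dose they summed to 31.7 to 33.6 CPM. Summed epithelial markers were 242 to 245 CPM in vehicle and 114 to 123 CPM at the high Sagunja-tang dose, and summed fibroblast markers 6604 to 6633 CPM and 4923 to 4950 CPM. The part of these 2 lists in the results was not tested.

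In vehicle, CCL2 was the most abundant of the 8 per length, at 18.6 CPM per kb of exon (rank 2348 of 17402 genes), and CXCL8 followed at 4.83 CPM per kb (rank 7028). The other 6 were near the lower limit of detection. CXCL1 had 2 to 9 counts per vehicle library, CXCL6 0 to 2 and CCL20 0 to 1. CXCL2, CXCL3 and CXCL5 stood between 0.401 and 0.877 CPM in the 3 vehicle libraries.

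The first question was how the chemokines responded to Sagunja-tang. At the high dose CXCL1, CXCL2, CXCL3, CXCL5, CXCL8 and CCL2 were higher in each of the 3 libraries than in any vehicle library. Of the 17516 genes tested, 25.2% showed this pattern. CXCL6 and CCL20 showed it too, on few counts, and CCL20 was not among the genes tested. Of the 7 chemokines with enough counts to be tested, CXCL6 passed the filter on low counts only through the Sagunja-tang libraries and is kept out of the tallies below. The other 6 all rose, against 8.94% of all genes called higher (15.2% without the aberrant low-dose library). CXCL8 rose 38.3-fold by group means, and CCL2 3.35-fold. In bulk samples such as these, a change in the share of cells that express a gene and a change in RNA per cell cannot be told apart. The labels give each library a sample code, and the first part of that code is called its set here. What it stands for is not stated, and all titles, vehicle included, carry the same name BatchB. Vehicle had a set of its own (B1), so set, solvent and treatment cannot be told apart in any comparison with vehicle. All comparisons with vehicle use the same 3 vehicle libraries.

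CXCL8, the prototype neutrophil attractant, stood at 12.0, 11.9 and 9.05 CPM in the 3 vehicle libraries. The low, medium and high Sagunja-tang doses gave 15.7, 21.6 and 23.3 CPM, then 89.2, 113 and 91.5 CPM, then 439, 433 and 389 CPM. No 2 of these 4 groups overlapped. Against vehicle the log2 fold change was 0.88 ± 0.12 (SE) at the low dose, 3.15 ± 0.12 at the medium dose and 5.26 ± 0.13 at the high dose, with adjusted p of 1.03e-05, 8.96e-23 and 5.34e-30 by the edgeR quasi-likelihood test. At the high dose 9725 to 10783 reads per library supported the value, and the gene's rank per length moved from 7028 in vehicle to 151.

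CXCL1, a ligand of CXCR2 first described as a melanoma growth factor, had the largest log2 fold change of the 7. It was counted 9, 9 and 2 times in the vehicle libraries, which is 0.343, 0.361 and 0.0808 CPM. The low dose gave 0.831, 1.49 and 1.72 CPM, the medium dose 4.73, 5.11 and 4.69 CPM and the high dose 18.3, 16.6 and 17.7 CPM. All 4 groups were separate, and the spread within the high dose was small (SD 0.878 CPM, n = 3). The log2 fold changes were 2.35 ± 0.37, 4.18 ± 0.32 and 6.03 ± 0.31 from the low to the high dose (adjusted p 5.7e-05, 1e-12 and 4.35e-19, edgeR). These folds rest on 20 reads in the 3 vehicle libraries together.

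CXCL2 and CXCL3, the closest paralogs of CXCL1, followed the same course from a vehicle level under 1 CPM. CXCL2 stood at 0.572, 0.641 and 0.606 CPM in vehicle and at 12.8, 14.3 and 12.7 CPM at the high dose. CXCL3 stood at 0.420, 0.401 and 0.566 CPM in vehicle and at 10.8, 10.9 and 12.1 CPM at the high dose. These are log2 fold changes of 4.44 ± 0.22 for CXCL2 and 4.60 ± 0.25 for CXCL3 (adjusted p 1.12e-19 and 1.99e-18, edgeR). At the medium dose CXCL2 was at 3.97 to 4.47 CPM and CXCL3 at 3.14 to 3.63 CPM, and both had risen (2.79 ± 0.23 and 2.83 ± 0.26). At the low dose the CXCL3 libraries were uneven, with 8, 40 and 25 counts, and the first lay within the vehicle range. CXCL3 still rose there by the test (1.19 ± 0.29, adjusted p 0.0043), but without replicate 2 of the low dose it did not (0.77, adjusted p 0.062). CXCL2 at the low dose was at 1.15 to 1.86 CPM in all 3 libraries, above vehicle in each (1.37 ± 0.25, adjusted p 0.000356).

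CXCL5 and CXCL6 are the other pair of near copies, and they differed in level. CXCL5 stood at 0.877, 0.641 and 0.606 CPM in vehicle, at 0.987, 2.03 and 1.95 CPM at the low dose, at 4.65, 4.01 and 3.72 CPM at the medium dose and at 10.8, 11.6 and 11.0 CPM at the high dose. Its log2 fold changes were 1.24 ± 0.26, 2.53 ± 0.23 and 3.96 ± 0.23 (adjusted p 0.00119, 1.74e-10 and 1.67e-17, edgeR). CXCL6 was counted 2, 2 and 0 times in vehicle, 2, 3 and 5 times at the low dose, 10, 10 and 3 times at the medium dose and 18, 23 and 17 times at the high dose. The high dose gave 58 reads against 4 in vehicle, a ratio of 15.1 for equal depth (95% exact counting interval 5.59 to 57.2, counting error only). Since CXCL6 passed the filter through the Sagunja-tang libraries alone, its call at the high dose (3.80 ± 0.69, adjusted p 9.37e-05) is given as a description. Its call at the medium dose (2.50 ± 0.79, adjusted p 0.047) ended without any one of the vehicle libraries or without medium-dose replicate 1 or 2 (adjusted p 0.0844 to 0.207), and at the low dose it was not called (1.41 ± 0.91, adjusted p 0.266).

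CCL2, the monocyte attractant, had the highest vehicle level and the smallest rise. The vehicle libraries were tight at 37.3, 37.2 and 36.2 CPM. The low dose gave 45.7, 39.6 and 37.4 CPM, the medium dose 83.9, 73.5 and 66.2 CPM and the high dose 130 (129.6), 122 and 120 (119.8) CPM. The low dose did not differ from vehicle beyond its spread (0.15 ± 0.10, adjusted p 0.29), although each of its libraries was above each vehicle library. The medium and high doses rose by 1.02 ± 0.10 and 1.75 ± 0.10 on the log2 scale (adjusted p 5.79e-10 and 1.22e-17, edgeR). Per length, CCL2 moved from rank 2348 to rank 576, and CXCL8, at rank 151 at the high dose, had passed it.

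CCL20 was counted 1, 0 and 0 times in vehicle, 0 times in each low-dose library, 2, 3 and 1 times at the medium dose and 12, 3 and 3 times at the high dose. The sum at the high dose was 18.7 times that of vehicle for equal depth (95% exact counting interval 2.96 to 780.3, 18 reads against 1). Against the low dose, which had no reads, the high dose stood at 5.55 times a floor of 3 counts over the group. That value leaves out the counting error of the 18 reads and is not a lower bound. The first high-dose library holds 12 of the 18 reads. CCL20 did not pass the filter on low counts. With a lighter filter, added after the data had been seen, it was called at the high dose against vehicle (adjusted p 0.0201) and against the low dose (adjusted p 0.00948), and DESeq2 gave it no adjusted p.

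Without CXCL6, 5 of 6 tested chemokines had risen at 20 µg/mL (all but CCL2), against 13.6% of all genes called higher there, and 6 of 6 at 100 µg/mL, against 3.51%. Every library was above every vehicle library for all of these 6 genes at the medium dose, where 17% of genes were. At the low dose this held for all of the 6 but CXCL3, where 11.9% of genes were. The median log2 fold change over all genes was 0.02, 0.02 and 0.03 from the high to the low dose. Without the aberrant first low-dose library the same 5 were called at 20 µg/mL, where 4.52% of genes were then called higher (8.12% at 100 µg/mL), with CXCL8 at 1.01, CXCL1 at 2.56, CXCL3 at 1.51, CXCL5 at 1.46 and CXCL2 at 1.27. When vehicle and the low dose were fitted alone, edgeR called none of the 7, with CXCL8 at 0.87 ± 0.20 and an adjusted p of 0.747.

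**Figure D1:**
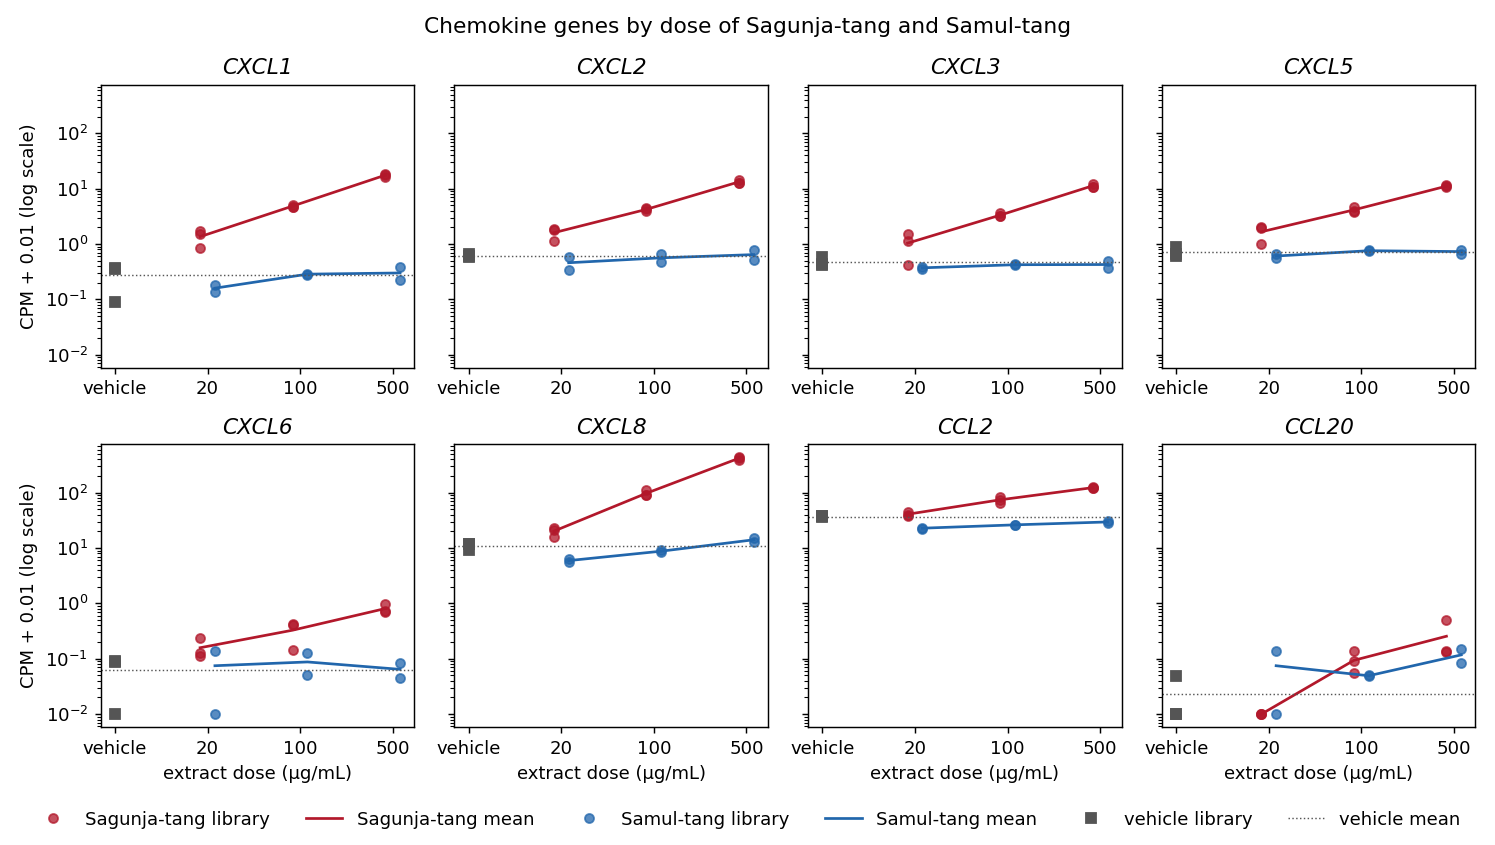
Level of each chemokine in CPM plus 0.01 on a log axis, for vehicle and for the low (20 µg/mL), medium (100 µg/mL) and high (500 µg/mL) doses; points are libraries, red for Sagunja-tang and blue for Samul-tang, lines join group means, and grey squares with a dotted line are vehicle libraries and their mean. The red points climb at each step in CXCL8, from 15.7 to 23.3 CPM at the low dose to 389 to 439 CPM at the high dose, while the blue points run from 5.54 and 6.32 CPM at the low dose, below every vehicle library, to 13.0 and 15.3 CPM at the high dose.

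The shape of the dose response was read within Sagunja-tang alone, where all libraries belong to one set. At each 5-fold step in dose all 6 genes other than CXCL6 rose: between medium and high dose against 0.742% of all genes called higher, and between low and medium dose against 2.38%. CXCL6 was called in neither (1.30 ± 0.51, adjusted p 0.376, and 1.09 ± 0.67, adjusted p 0.255). CXCL8 gained 2.27 ± 0.12 and then 2.10 ± 0.11 on the log2 scale. CXCL1 gained 1.82 ± 0.26 and 1.86 ± 0.22, CXCL2 1.42 ± 0.20 and 1.65 ± 0.18, CXCL3 1.64 ± 0.23 and 1.77 ± 0.20, and CXCL5 1.30 ± 0.21 and 1.42 ± 0.19. CCL2 gained 0.87 ± 0.10 and 0.73 ± 0.10. With a replicate block within the Sagunja-tang and Samul-tang set, CXCL2, CXCL3 and CXCL5 lost the call between low and medium dose (adjusted p 0.0659, 0.183 and 0.153).

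The difference between the steps was itself tested. It ran from -0.17 ± 0.19 in CXCL8 to 0.23 ± 0.33 in CXCL2, and none of the 7 was called by edgeR, nor any (0%) of the 17516 genes, of which 1657 had an unadjusted p under 0.05. DESeq2 called 3 genes. For CXCL8 the difference plus or minus 2 SE spanned -0.55 to 0.21, and for CCL2 (-0.14 ± 0.17) it spanned -0.47 to 0.20, so a bend within these bounds was not detectable. Without the first low-dose library the difference ran from -0.23 ± 0.15 in CCL2 to 0.46 ± 0.30 in CXCL3, and none was called. From the low to the high dose the 6 rose again, against 7.93% of genes called higher, and the folds of the group means ordered the genes as CXCL8 (20.8), CXCL1 (13.0), CXCL3 (11.0), CXCL2 (8.34), CXCL5 (6.71), CXCL6 (5.38) and CCL2 (3.02). The 6 calls remained without the first low-dose library (3.49% of genes called higher), as did those from low to medium dose (0.453%). With only the high and low doses fitted, CXCL3 lost its call (3.42, adjusted p 0.0699), and CXCL6, called at 2.39 ± 0.59 (adjusted p 0.00504), lost its own there (adjusted p 0.21) and with the replicate block within the set (adjusted p 0.124). With only the medium and low doses fitted, none of the 7 was called for that step (CXCL8 2.27 ± 0.20, adjusted p 0.197).

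Samul-tang, the other formula, was in the same sample set as Sagunja-tang and serves as a comparison free of the difference in set. The 6 chemokines other than CXCL6 were all higher with Sagunja-tang at 500 µg/mL, against 4.08% of genes, at 100 µg/mL, against 0.822%, and at 20 µg/mL, against 1.18%. CXCL8 stood at 13.0 and 15.3 CPM in the 2 high-dose Samul-tang libraries, where Sagunja-tang gave 389 to 439 CPM, a log2 difference of 4.89. The differences at the high dose were 5.90 for CXCL1, 4.75 for CXCL3, 4.38 for CXCL2, 3.93 for CXCL5 and 2.06 for CCL2. CXCL6 differed by 3.76 (adjusted p 0.000779), from 58 reads against 3, and was not called without Samul-tang replicate 2 (adjusted p 0.06). CCL20 did not separate the formulas: 18 reads against 6 gave a ratio of 2.28 with a 95% exact counting interval of 0.867 to 7.01.

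At the low dose CCL2 also differed between the formulas (0.84, adjusted p 1.41e-05), with 37.4 to 45.7 CPM against 22.4 and 23.3 CPM, while CXCL6 was not called there or at the medium dose. Of the 6 differences at the low dose, those of CXCL2, CXCL3 and CXCL5 were lost without Samul-tang replicate 2 and those of CXCL3 and CXCL5 without replicate 1 (adjusted p 0.172 to 0.278), which leaves 1 library that is assumed to vary like the other groups. None of the 6 was called when these groups were fitted alone. With the replicate block within the set CXCL8 and CCL2 kept their calls and the other 4 lost theirs (adjusted p 0.0529 to 0.434). Without the first low-dose Sagunja-tang library all 6 were called, CXCL8 at 1.91 ± 0.14 and CCL2 at 0.75 ± 0.12, against 0.206% of genes. The rise from low to high dose was larger with Sagunja-tang in 5 of 6 genes, against 1.43% of genes: CXCL3 by 3.21 ± 0.51, CXCL8 by 3.12 ± 0.20, CXCL2 by 2.58 ± 0.44, CXCL5 by 2.45 ± 0.43 and CCL2 by 1.22 ± 0.16. For CXCL1 the difference was 2.75 ± 0.82 and was not called (adjusted p 0.0574), and its Samul-tang counts were low, with 16 reads in the high-dose pair. Fitted alone, the 4 groups gave a call for CXCL8 only (3.12 ± 0.25, adjusted p 0.00675). With the replicate block within the set CXCL8 and CCL2 were called, and CXCL2, CXCL3 and CXCL5 were not (adjusted p 0.1 to 0.145).

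The second question was the level of the chemokines at the low doses of the other extracts. At 20 µg/mL, CXCL8 and CCL2 were lower than in vehicle across the 5 other extracts with replicates. The 14 libraries had CXCL8 at 5.02 to 7.49 CPM (median 5.53), all below the lowest vehicle library at 9.05 CPM. They had CCL2 at 21.7 to 29.4 CPM (median 25.9), all below the vehicle minimum of 36.2 CPM. For CCL2 this was not particular to the low dose, since all 48 extract libraries outside Sagunja-tang, over all doses, had 10.0 to 35.9 CPM. CXCL8 in the same 5 extracts ran from 6.12 to 9.24 CPM at the medium doses and from 6.45 to 15.6 CPM at the high doses. The mean of the 5 low doses differed from vehicle by -0.92 ± 0.10 in CXCL8 (adjusted p 2.91e-08) and by -0.55 ± 0.08 in CCL2 (adjusted p 6.65e-06, edgeR), and 2 of 6 chemokines were called lower where 1.86% of all genes were (7.84% without the aberrant Sagunja-tang library). CXCL1 (-0.94 ± 0.42, adjusted p 0.253) and CXCL3 (-0.66 ± 0.27, adjusted p 0.223) were not called, with 1 to 13 and 4 to 18 counts in any of the 51 libraries outside Sagunja-tang.

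Taken extract by extract, CXCL8 at the low dose was lower with Rehmannia (5.05 to 5.42 CPM, -1.06 ± 0.14), Astragalus (5.02 to 5.39 CPM, -1.08 ± 0.14), Samul-tang (-0.89 ± 0.16), Cnidium (-0.84 ± 0.14) and Cinnamon (-0.74 ± 0.13). Among all genes the share called lower at these low doses was 0.257% with Rehmannia, 2.03% with Astragalus, 1.22% with Samul-tang, 0.0856% with Cnidium and 0.383% with Cinnamon. With the aberrant Sagunja-tang library left out, these shares were 1.94%, 8.86%, 7.97%, 0.756% and 3.14% in the same order. CCL2 at the low dose was lower with Samul-tang (-0.69 ± 0.12), Astragalus (-0.67 ± 0.10), Cinnamon (-0.55 ± 0.10) and Rehmannia (-0.41 ± 0.10). The last call (adjusted p 0.0267) ended without any one of the vehicle or Rehmannia low-dose libraries (adjusted p 0.0704 to 0.136), and the CXCL8 call of Samul-tang ended without its low-dose replicate 1 (adjusted p 0.0615). Vehicle was the 8th highest of the 25 groups for CXCL8 and the 4th highest for CCL2. Because vehicle formed a set of its own, a lower level in all these extracts and a higher level in the vehicle set cannot be told apart.

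Against these low doses, Sagunja-tang at 20 µg/mL was higher in the 6 genes other than CXCL6, where 19.2% of genes were called higher. CXCL8 differed by 1.80 ± 0.09 (adjusted p 4.3e-18), CXCL1 by 3.30 ± 0.29 and CCL2 by 0.69 ± 0.08 (adjusted p 2.3e-08). CXCL2, CXCL3 and CXCL5 differed by 1.66, 1.84 and 1.47. Without the aberrant first library the 6 were called where 0.55% of genes were. CXCL6, called at 2.05 (adjusted p 0.0296), was then not called (2.21, adjusted p 0.22), nor without replicate 3 (1.64, adjusted p 0.131). The CXCL8 range of 15.7 to 23.3 CPM was separate from the 5.02 to 7.49 CPM of the other low doses.

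**Figure D2:**
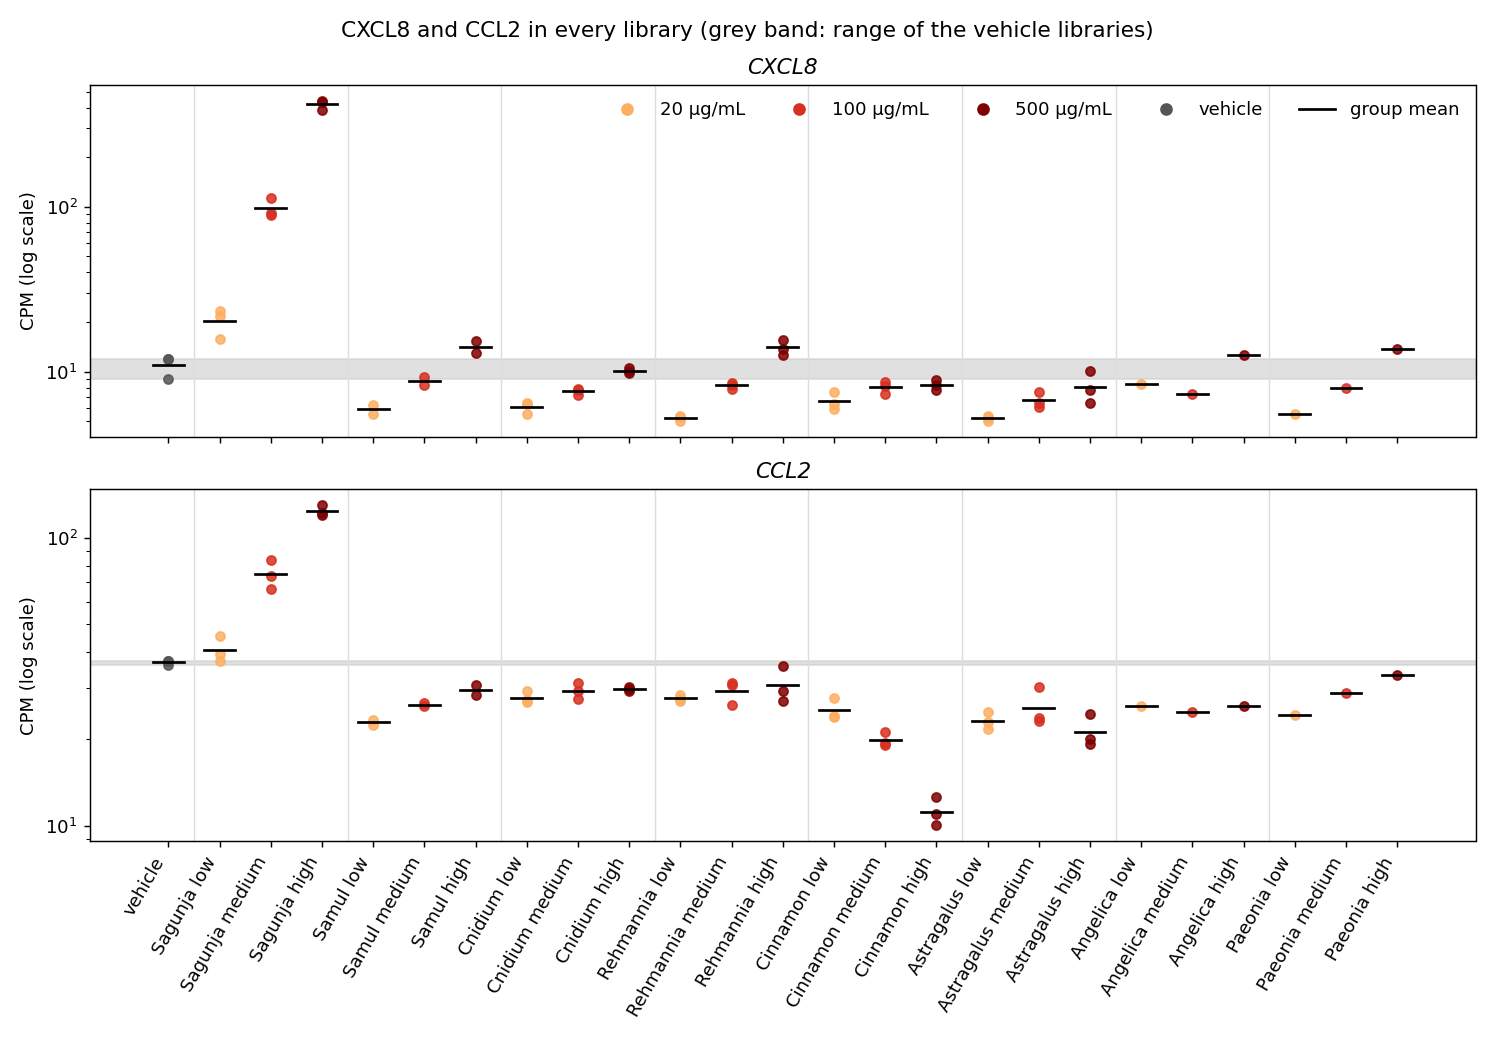
CXCL8 and CCL2 levels (CPM, log axis) in all 25 groups; each point is a library, each short line a group mean and the grey band the range of the vehicle libraries. Low doses of the extracts other than Sagunja-tang lie below the band in both genes. For CCL2 the medium and high doses of those extracts lie below it too, and Cinnamon high is the lowest group at 10.0 to 12.5 CPM.

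CXCL8 was higher at the high than at the low dose within several of the other extracts as well, from a far lower level. Rehmannia means went from 5.26 to 8.27 to 14.0 CPM (high against low 1.42 ± 0.13, adjusted p 2.03e-09). Samul-tang went from 5.93 to 8.78 to 14.1 CPM (1.25 ± 0.16, adjusted p 2.71e-06) and Cnidium from 6.14 to 7.61 to 10.1 CPM (0.72 ± 0.14, adjusted p 0.00581). Astragalus went from 5.21 to 6.69 to 8.09 CPM (0.63 ± 0.14, adjusted p 0.0271), a call that ended without any one of its low-dose libraries or high-dose replicate 2 or 3 (adjusted p 0.0612 to 0.25), and that of Cnidium ended without its low-dose replicate 3 (adjusted p 0.102). Cinnamon went from 6.60 to 8.07 to 8.33 CPM and was not called (0.34 ± 0.14, adjusted p 0.0727), though every high-dose library was above every low-dose library. With the aberrant Sagunja-tang library left out it was called by edgeR (0.34, adjusted p 0.0345), where 18.3% of all genes were called higher. The share of all genes called higher between these doses was 0.445% with Rehmannia, 0.428% with Samul-tang, 0.148% with Cnidium and 0.0971% with Astragalus. With that library left out, these shares were 1.72%, 1.03%, 0.493% and 0.504%. Over the 5 extracts, 2.29% of gene tests were called higher and 2.43% lower.

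At the high dose these CXCL8 means ran from 8.09 CPM with Astragalus to 14.1 CPM with Samul-tang, on both sides of the vehicle mean of 11.0 CPM. Astragalus high and Cinnamon high were called lower than vehicle, as given below. Samul-tang high (13.0 and 15.3 CPM) and Rehmannia high (12.6 to 15.6 CPM) overlapped each other and ranked below Sagunja-tang low. Neither was called against vehicle in the fit of all libraries, and both were called higher (0.35 each) without the aberrant Sagunja-tang library. Paeonia and Angelica, each a single library per dose without a test, had CXCL8 at 13.7 and 12.7 CPM at the high dose. Paeonia had 5.51 CPM at the low and 7.98 CPM at the medium dose, and Angelica had 8.36 and 7.32 CPM. Their CCL2 was 24.3, 28.9 and 33.4 CPM from low to high dose with Paeonia and 26.1, 24.8 and 26.1 CPM with Angelica, each below the vehicle range.

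CCL2 moved the other way with Cinnamon. Its means went from 25.2 ± 2.20 CPM (SD, n = 3) at the low dose to 19.9 ± 1.10 at the medium and 11.2 ± 1.26 at the high dose, where the libraries had 10.0, 11.0 and 12.5 CPM. That is the lowest of the 25 groups and overlaps no other. Against vehicle the log2 differences were -0.55 ± 0.10, -0.89 ± 0.10 and -1.72 ± 0.11 (adjusted p 0.00157, 1.3e-07 and 2.09e-16, edgeR), and high against low was -1.17 ± 0.11 (adjusted p 1.83e-11). Among all genes 0.383%, 1.16% and 10.9% were called lower than vehicle at these doses, and 11.2% were lower at the high than at the low dose. With the aberrant Sagunja-tang library left out, these shares were 3.14%, 4.49%, 18.3% and 17.6%. With the other 4 extracts CCL2 was not called between the low and high dose. Cinnamon gave 5 calls over the 3 doses, all lower, against 4.16% of gene tests called lower. With the aberrant Sagunja-tang library left out, edgeR also called CXCL8 lower at the medium dose (-0.46, adjusted p 0.01) and CXCL1 at the high dose (-1.65, adjusted p 0.027). CXCL8 with Cinnamon high was lower by 0.40 ± 0.13 (adjusted p 0.0225), a call that ended without any one of vehicle replicates 1 and 2 and Cinnamon high replicates 2 and 3 (adjusted p 0.0586 to 0.124).

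Astragalus gave 6 calls, all lower, where 2.08% of gene tests were: CCL2 at the high (-0.80 ± 0.10), medium (-0.52 ± 0.10) and low dose, and CXCL8 at the high (-0.44 ± 0.13), medium (-0.71 ± 0.13) and low dose. At the high and medium doses 2.07% and 2.15% of all genes were called lower (7.26% and 8.59% without the aberrant Sagunja-tang library). The CXCL8 call at the Astragalus high dose (adjusted p 0.0394) rests on groups that overlap and ended without any one of vehicle replicates 1 and 2 and Astragalus high replicates 1 and 2 (adjusted p 0.161 to 0.227). Samul-tang gave 3 calls where 1.3% were called lower, CCL2 at the medium dose (-0.49 ± 0.11, adjusted p 0.0148, with 0.839% of all genes called lower) besides those of the low dose. That CCL2 call ended without vehicle replicate 1 or either Samul-tang medium library (adjusted p 0.06 to 0.263). Rehmannia gave 2 calls where 0.459% were called lower, and Cnidium 1 where 0.219% were. Without the aberrant low-dose Sagunja-tang library, which enters the shared spread, calls in either direction became 5 for Samul-tang, 5 for Rehmannia and 4 for Cnidium. Those then included CXCL8 called higher by edgeR with Samul-tang high (0.35, adjusted p 0.0438) and Rehmannia high (0.35, adjusted p 0.0379). The shares of all genes called higher there were 5.92% and 3.56%. In the fit of all 54 libraries no chemokine was called higher than vehicle with any extract other than Sagunja-tang.

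CXCL1, CXCL2, CXCL3, CXCL5, CXCL6 and CCL20 stayed at the edge of detection in the 51 libraries outside Sagunja-tang. CXCL2 had 7 to 23 counts, CXCL5 8 to 30 and CXCL6 0 to 3, with CXCL6 at 0 in 23 libraries. CCL20 had 0 to 5 counts and was at 0 in 26. No tested difference between those groups in these genes was called in the fit of all 54 libraries. With the aberrant Sagunja-tang library left out, edgeR called CXCL1 lower with Cinnamon high than in vehicle (-1.65, adjusted p 0.027). It also called CXCL2 higher at the high than at the low Cinnamon dose (0.72, adjusted p 0.0435). In these comparisons 18.3% of all genes were called lower and 18.3% higher, respectively.

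**Figure D3:**
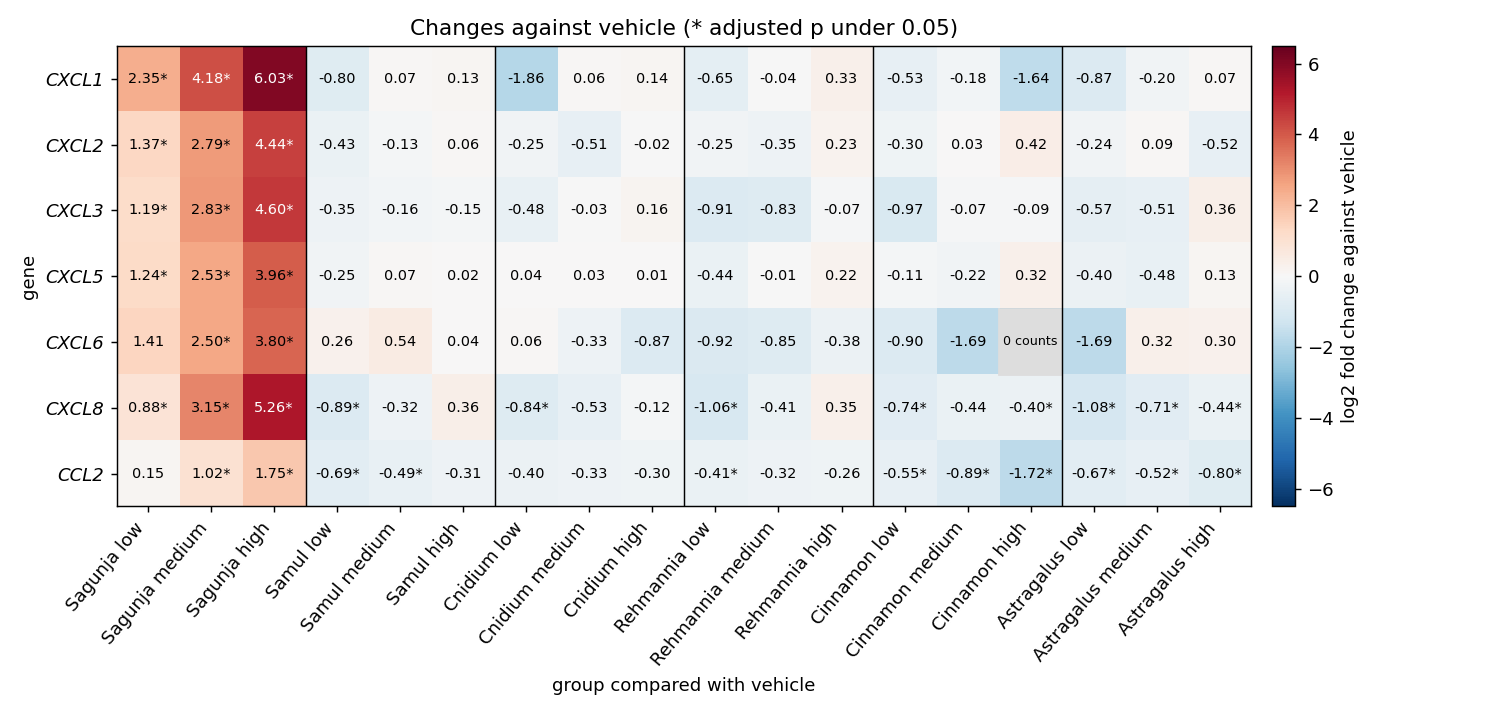
Log2 fold change against vehicle of the 7 tested chemokines (rows) in the 18 extract and dose groups with replicates (columns); red is higher, blue lower, and an asterisk marks an adjusted p under 0.05 by edgeR. The 3 Sagunja-tang columns hold all the higher calls, and the lower calls lie in the CXCL8 and CCL2 rows.

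The balance between neutrophil and monocyte chemokines changed with dose. The sum of the 8 genes per length was 24.5 ± 1.20 CPM per kb in vehicle (SD, n = 3) and 32.8 ± 0.325, 90.5 ± 6.93 and 279.5 ± 14.1 at the low, medium and high Sagunja-tang doses. CCL2 made up 75.8% of it in vehicle and 62.9%, 41.5% and 22.3% at the 3 doses. CXCL8 made up 19.6% and then 27.1%, 47.6% and 66.1%. Without the first low-dose library CCL2 made up 58.8% at the low dose. The ratio of CXCL8 to CCL2 per length thus went from 0.260 to 0.441, 1.16 and 2.97. With Cinnamon high the sum was the lowest of any group, 10.5 CPM per kb, and the ratio was 0.657 (0.579 to 0.779 over the libraries) with CCL2 at 53.9% of the sum. Rehmannia had ratios of 0.166 at the low and 0.405 at the high dose.

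**Figure D4:**
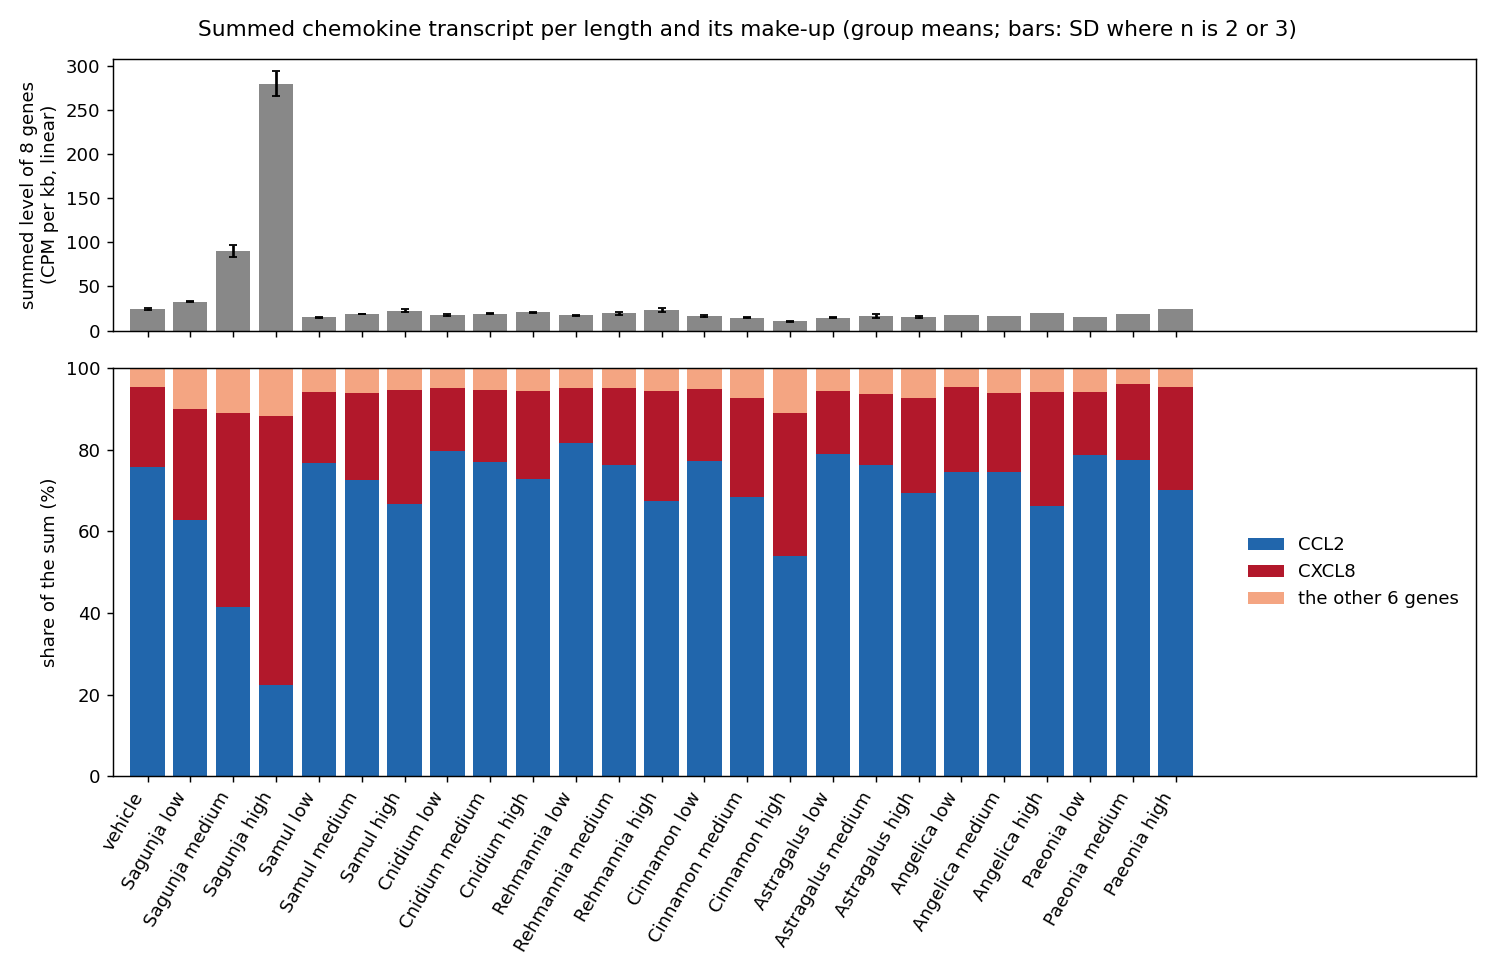
Summed level of the 8 chemokines per length (bars, CPM per kb of exon, SD where a group has 2 or 3 libraries) and the share of CCL2, CXCL8 and the other 6 in that sum (%), by group. The Sagunja-tang bars reach 279.5 CPM per kb at the high dose, where CCL2 makes up 22.3% of the sum, against 75.8% in vehicle.

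The rise on chromosome 4 did not take in all of the cluster. PF4, PF4V1 and PPBP, platelet chemokine genes between the members, had at most 2, 1 and 1 counts in any library. Just outside, EREG, which encodes the growth factor epiregulin, rose from 1.39 to 2.81 CPM at the high dose of Sagunja-tang (1.02 ± 0.19, adjusted p 0.000138). MTHFD2L, a mitochondrial folate enzyme gene, rose by 0.54 ± 0.10 (adjusted p 8.46e-05), and AFP (0.62 ± 0.25, adjusted p 0.0786) and EPGN (0.55, adjusted p 0.0688) were not called.

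Genes of the same pathway were read in 8 lists of 124 genes at the high dose of Sagunja-tang against vehicle, where 17.1% of all genes were called in either direction. With the aberrant low-dose library left out, that share was 30.9%. Other chemokines were mostly silent. Of 11 other CXC ligands 3 were tested and none was called, and of 20 other CC, CX3C and XC ligands 3 were tested, CCL5 (0.92 ± 0.21, adjusted p 0.00156) rising and CX3CL1 (-1.05 ± 0.17, adjusted p 1.19e-05) falling. Of 18 receptors for chemokines 7 were tested and none was called. Without the aberrant low-dose library 1 other CXC ligand and 1 receptor were called lower. Cytokines that act with these chemokines rose in 11 of 11 tested, with a median log2 fold change of 2.55 against 0.02 over all genes. Whether any of them passed the filter on low counts only through the Sagunja-tang libraries was not checked, so this count is a description. CSF3, for one, had a vehicle mean of 0.275 CPM. CSF3, the neutrophil growth factor G-CSF, rose by 5.72 ± 0.33, CSF2 by 5.11 ± 0.50, IL6 by 3.13 ± 0.10 and IL1B by 2.59 ± 0.11.

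NF-kB subunits and their feedback inhibitors rose in 11 of 17 and fell in 1, with a median of 0.61. The largest changes were in NFKBIZ (1.99 ± 0.16), a nuclear cofactor, TNFAIP3 (1.91 ± 0.16), a deubiquitinase that ends NF-kB signalling, NFKBIA (1.53 ± 0.08), the inhibitor that holds NF-kB in the cytoplasm, and NFKB2 (1.19). Upstream receptors and adaptors gave 4 higher and 3 lower of 24 tested (median -0.04), with IRAK2 at 0.99, TLR5 at 0.61, TNFRSF1A at -0.55 and RIPK2 at 0.43. Of 10 AP-1 and C/EBP factors 1 rose (JUN, 0.21) and 2 fell (FOSB, -0.88, and CEBPD, -0.50). Among 9 factors that set the stability of chemokine mRNA, ZC3H12A, an RNase that cleaves inflammatory transcripts, rose by 1.70 ± 0.10, ZC3H12C rose by 0.72, and ZFP36 (-0.64) and KHSRP (-0.33) were among 3 that fell (5 without the aberrant library).

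The cytokine and NF-kB lists also followed the dose. The medium dose, where 6.32% of all genes were called in either direction, gave 7 cytokines and 8 NF-kB genes higher and none lower. The low dose, with 22.1% called, gave 4 cytokines higher and 1 lower, and 5 NF-kB genes higher and 1 lower. Without the aberrant library, with 11.4% called, these were 4 and 1 cytokines, and 3 and 1 NF-kB genes. Against Samul-tang high, where 4.08% of all genes were higher, they gave 11 of 11 and 9 of 17 higher, with the same limit on the cytokine count. With Cinnamon high, where CCL2 was lowest and 22.8% of all genes were called, 3 cytokines were higher and 2 lower, among them IL1B (1.21 ± 0.11) higher and IL6 not called (0.26, adjusted p 0.081). NF-kB genes there gave 3 higher and 1 lower. In the mean of the 5 other low doses, 3 of 17 NF-kB genes and 2 of 11 cytokines were lower than in vehicle, against 1.86% of all genes, and none was higher. Without the aberrant Sagunja-tang library these were 7 and 3, against 7.84%.

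Genes with the pattern most like a chemokine were found by Pearson r of log2(CPM + 1) over the 25 group means, given as a description, since the Sagunja-tang groups set most of it. For CXCL8 they were IL6 (0.981), C1QTNF1 (0.975), TNFAIP3 (0.961), ICAM1 (0.955) and C3 (0.955). C3 also stood among the nearest for CXCL1 (0.983), and IL6 was among those for CXCL3 (0.969). ICAM1 was nearest to CXCL5 (0.979) and C1QTNF1 to CXCL2 (0.981). For CCL2 the likeness was weaker, with ZC3H12A at 0.904 and TNFAIP3 at 0.902.

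Over the 22 groups without Sagunja-tang the neighbours were others. For CXCL8 they were LIF (0.882), C9orf64 (0.853), RGMB (0.840), CD274 (0.833) and NCOA7 (0.832). For CCL2 they were MAP3K14 (0.937), the kinase of the alternative NF-kB pathway, PLAU (0.934), which encodes urokinase, and NEXN (0.888). PLAU went from 135.6 CPM in vehicle to 60.6 CPM with Cinnamon high, and MAP3K14 from 67.8 to 43.2 CPM. With Sagunja-tang high, left out of these groups, they did not follow the rise of CCL2. MAP3K14 stood there at 34.4 CPM, PLAU at 138.9 CPM and NEXN at 52.3 CPM (52.4 CPM in vehicle). Among the 28 pairs of members r over these 22 groups ran from -0.286 (CCL20 with CXCL2) to 0.647 (CXCL8 with CXCL1), with a median of 0.111 and 11 pairs below 0. It was 0.331 for CXCL8 with CCL2. The genes at the edge of detection enter most of these pairs.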

How the data were processed

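RNA from 60 libraries of SW1783 cells was sequenced as paired-end directional mRNA libraries on an MGI instrument, per the labels' protocols. The deposited values are expected counts per gene, which the authors estimated with RSEM 1.3.3, per the submitters' processing notes. Those notes also name STAR 2.7.3a, Trim Galore 0.6.5, FastQC 0.11.9 and hg38 (GRCh38). The annotation behind the counts is not given in the sources used. The table has 279 columns, of which 219 are not used here. The sample labels give 0.1% DMSO, and the series text another level. Nothing says that replicates were separate cultures, so p-values measure only the spread between these samples, which may be technical. No library was a copy of another.

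Expected counts were rounded (90.67% were whole already), and filterByExpr left 17516 genes. A single edgeR quasi-likelihood fit (estimateDisp, robust glmQLFit, glmQLFTest) took in the 54 libraries of the 19 groups that had 2 or more. Its TMM factors ran from 0.936 to 1.028, its residual degrees of freedom were 35 and its BCV was 0.095. P was adjusted by Benjamini-Hochberg over all genes in each of 33 comparisons, and a gene was called, and said to rise or fall, at an adjusted p under 0.05. The steps were tested on simulated data. SE is the size of the log2 fold change divided by the square root of F. Symbols came from an Ensembl table (56558 genes) and positions from GENCODE 29. R 4.3.3, edgeR 4.0.16, limma 3.58.1, DESeq2 1.42.0, Python 3.11.15, pandas 2.3.3 and matplotlib 3.10.9 were used.

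All 8 chemokines are named whatever they showed. Up to 4 genes of each list were named, those with the largest changes among the ones called at the high Sagunja-tang dose with at least 1 CPM in a group. By pattern, the 5 genes most like CXCL8 and the 3 most like each other member were taken, with at least 5 CPM in some group. Exceptions are the chromosome 4 neighbours and the cytokines with Cinnamon. The members and lists were chosen with earlier results of these data known. Replicate numbers were checked for pairing in 22 comparisons with 3 pairs: in 3 (Sagunja-tang medium against vehicle, Sagunja-tang high against medium, Astragalus high against low) every same-numbered pair deviated together (r over 0.1), and a replicate block changed no call of a chemokine there. Alternatives were other scalings, filters, DESeq2, robust dispersion, blocks, fits of the compared groups alone and each library left out.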

Additional observations from a re-analysis of the deposited data

Results flagged for a closer look

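In 5 of the chemokines the change from the low to the high dose differed between the 2 formulas by the edgeR test of the difference itself. On the log2 scale the rise with Sagunja-tang exceeded that with Samul-tang by 3.21 in CXCL3, 3.12 in CXCL8, 2.58 in CXCL2, 2.45 in CXCL5 and 1.22 in CCL2. For CXCL8 the group means went from 20.2 to 420.3 CPM with Sagunja-tang (3 libraries per dose) and from 5.93 to 14.1 CPM with Samul-tang (2 per dose). For CCL2 they went from 40.9 to 123.7 CPM and from 22.9 to 29.7 CPM. When only the groups compared were fitted, CXCL8 alone was called. With the replicate block within the set, CXCL8 and CCL2 kept their calls and CXCL2, CXCL3 and CXCL5 lost theirs. The CXCL2 difference was lost without Samul-tang low replicate 1 (adjusted p 0.0785), and the 5 were called without the first low-dose Sagunja-tang library as well.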

How the results depend on the processing

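Of 1577 alternative values of the 93 called results of single chemokines, 1496 stayed called in the same direction, 81 (in 33 results) were no longer called and none reversed. Unlike the tallies above, these numbers include the calls of CXCL6, which passed the filter only through the Sagunja-tang libraries. Leaving out 1 library ended 39 of these calls, fitting only the groups compared 25 and the replicate block within the Sagunja-tang and Samul-tang set 11, while RLE scaling, DESeq2, robust dispersion and the block over all groups ended none. With only the groups compared, the chemokines called became 0 for Sagunja-tang low against vehicle, 0 for medium against low, 0 for low against Samul-tang low, 1 for the difference of dose effects between the formulas, and 5 each for Cnidium, Rehmannia and Samul-tang against vehicle. With the replicate block within that set they became 3 for medium against low, 2 for low against Samul-tang low and 2 for the difference of dose effects. For Cnidium, where 1 call was made, RLE and library size alone gave 2 each, and no filter, the stricter filter, the replicate block and DESeq2 gave 3 each. Leaving out each library in turn gave 3 to 6 for Sagunja-tang low against Samul-tang low, 4 to 6 for the difference of dose effects, 1 to 4 for Cnidium, 1 to 5 for Rehmannia and 2 to 5 for Samul-tang. The cause of these shifts was not tested. The other counts of chemokines called, which include CXCL6, were within 1.5 times of those reported. Counts over all genes moved more: by over 1.5 times in 31 of 33 comparisons without the first low-dose Sagunja-tang library, 28 of 33 with only the groups compared, 7 of 8 with the block within the set, 11 of 33 with DESeq2, 10 with no filter, 6 with the lighter filter, 2 each with library size alone and the block over all groups, 1 with the stricter filter and 0 with RLE or robust dispersion. Sagunja-tang low against Samul-tang low, with 256 genes called, gave 69 with library size alone, 57 with the lighter filter, 923 with the stricter, 3158 with none, 1309 with the block over all groups, 1896 with DESeq2, 3 with the block within the set, 39 without that library and 0 with only those groups. Sagunja-tang medium against low, with 1593, gave 3088 with no filter, 702 with the lighter, 97 without that library, 11 with the block within the set and 0 with only those groups. The test of the 2 dose steps called 0 genes, and 3 with DESeq2 and 480 with no filter. Outside the 3 comparisons named with the processing, replicate numbers did not pair the libraries (r from -0.43 to 0.41 over the 22), and in 6 every library correlated best with its own number. The fit with no filter was run without the robust step, which could not be fitted, and the lighter filter was added after the data had been seen. CXCL6 and CCL20 had too few counts outside Sagunja-tang for a difference to be detected.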
